A study of Mus musculus with 12 samples.

Results

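ZFP57 sites called in E14 alone are places where the ZFP57 peak list of E14 mouse embryonic stem cells has a peak and the 3 lists set beside it have none. Those 3 are KAP1 in E14, ZFP57 in A3 and KAP1 in A3. Peaks of the 4 lists that overlapped by at least 1 bp were joined into 12833 sites, and 421 of these met the rule. Each of the 421 is a single E14 ZFP57 peak, so they make up 421 of the 602 peaks of that list (69.9%, 95% exact Clopper-Pearson interval 66.1 to 73.6%). The calls themselves chose the sites, so this share describes the choice and no test was made on it.

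The study sequenced chromatin immunoprecipitates (ChIP-seq). An antibody enriches formaldehyde-fixed DNA fragments bound by a protein, and the aim was to compare Zfp57-/- with wild-type cells. E14 is a wild-type line of strain 129P2/OlaHsd, and A3 is a wild-type line of strain 129X1/SvJ. Both were grown without feeder cells and with leukemia inhibitory factor, but E14 received more serum and only A3 received non-essential amino acids. Each list comes from 1 library, so no value has a replicate error, and line, strain, medium and library cannot be told apart. The 8 remaining libraries are not used here, among them all 4 of the A3_Zfp57-/- cells, the inputs and the histone mark, so no site was compared with cells lacking ZFP57.

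ZFP57 belongs to the KRAB zinc finger proteins. It binds a short CpG-containing DNA motif when it is methylated, and it is best known for keeping DNA methylation at imprinting control regions in embryos and stem cells. KRAB domains recruit the corepressor KAP1 (TRIM28), which brings a histone methyltransferase that deposits H3K9me3. A ZFP57 peak without a KAP1 peak therefore shows 1 protein of the pair and not the other as called. A missing call does not show a missing protein, because the lists give only positions and hold no signal, score or read depth. Positions are of build mm9. No genome or gene models of that build were used here, so sites are not placed in genes, exons, introns or UTRs, and no sequence is printed.

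Most E14-alone sites were as narrow as the list allows. Of the 421, 239 had the minimum width of 300 bp (56.8%, 51.9 to 61.6%), against 42.5% of all E14 ZFP57 peaks. A further 117 were 450 bp wide and 41 were 600 bp wide, which leaves 24 wider ones. The lowest width was 300 bp, the median 300 bp and the highest 16650 bp. Together the sites covered 196.2 kb, of which the 3 widest held 27.15 kb (13.8%).

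The 181 E14 ZFP57 peaks that overlapped another list had a median width of 600 bp, and 17 of them were 300 bp wide (9.39%, 5.57 to 14.6%). Among those 17 narrow peaks 10 met an E14 KAP1 peak only, 5 met an A3 KAP1 peak only and 2 met both. The median differed by partner. E14 ZFP57 peaks that met an A3 KAP1 peak only had a median of 450 bp (n = 16), as did those with an E14 KAP1 peak only (n = 67). The median was 600 bp for peaks with KAP1 in both lines (n = 42) and for those in all 4 lists (n = 38). It was also 600 bp for peaks that met A3 ZFP57 only (n = 5) and for those with E14 KAP1 and A3 ZFP57 (n = 13).

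Seen by width class, the part of the E14 ZFP57 list called in no other list was highest for the narrowest peaks. It was 239 of 256 peaks of 300 bp (93.4%, 89.6 to 96.1%), 117 of 171 of 450 bp (68.4%, 60.9 to 75.3%) and 41 of 112 of 600 bp (36.6%, 27.7 to 46.2%). Among peaks of 750 to 900 bp it was 12 of 37 (32.4%, 18.01 to 49.8%). Among peaks of 1050 bp and more it was 12 of 26 (46.2%, 26.6 to 66.6%), an interval that contains the values of both classes before it. A wider peak has more bases that can meet another peak, and the rule used that overlap, so these shares are a description.

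**Figure D1:**
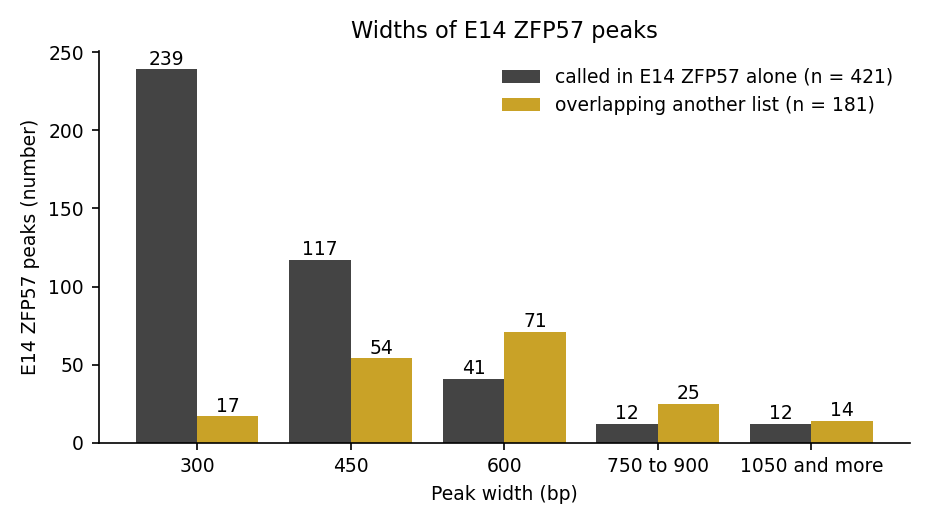
Number of E14 ZFP57 peaks (vertical axis) by peak width in bp (horizontal axis), for the 421 called in E14 ZFP57 alone and the 181 overlapping another list; bars are counts. The 300 bp class holds 239 of the former and 17 of the latter, and from 600 bp on the overlapping peaks are the more numerous.

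The sites just inside the rule were these. The 300 bp site at chr8:87200701-87201000 touched an E14 KAP1 peak without sharing a base with it, and an E14 ZFP57 peak that did meet another list lay 0.3 kb away. Gaps of 0.3 kb separated chr2:98502151-98503350 from an E14 KAP1 peak, and chr7:128274601-128274900 and chr8:108502201-108502800 from A3 KAP1 peaks. At chr2:98504851-98505600 the gap to an E14 KAP1 peak was 0.45 kb. At chrX:120336601-120337200 it was 0.45 kb to a KAP1 peak of each line, and at chr3:134827201-134827650 it was 0.9 kb to each. The other sites among the 10 nearest lay beside peaks of A3: chr15:97455901-97456200 at 0.6 kb and chr2:30084901-30085350 at 0.75 kb from A3 KAP1, and chr3:15664951-15666000 at 1.2 kb from A3 ZFP57.

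Just outside the rule, 4 E14 ZFP57 peaks shared only 150 bp, 1 step of the position grid, with a peak of another list. Those at chr9:13558351-13558650 and chr14:118555201-118555650 met E14 KAP1. Those at chr16:62880001-62880300 and chr18:37140151-37140450 met A3 KAP1. The next step, 300 bp, held 19 peaks, and the 6 first in genome order were at chr1:17668651-17668950, chr1:36777451-36777750, chr3:27817951-27818550, chr3:32703451-32703750, chr3:88477351-88477650 and chr3:96292801-96293100. All of these 6 except chr3:27817951-27818550 are 300 bp wide. They lie wholly within a peak of the other list, so a short overlap there reflects a narrow peak. Few sites lay just inside the rule: 9 of 421 became shared when a peak within 1 kb counted as shared, which left 412.

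The sites lay on every chromosome. A total of 407 were on the 19 autosomes (96.7%, 94.5 to 98.2%), against 95.5% of all E14 ZFP57 peaks, with 11 on chromosome X and 3 on chromosome Y. Per autosome the number ran from 12 on chromosome 19 to 38 on chromosome 1, with a median of 21. Divided by the span up to the last peak of any list, the density ran from 8.52 to 20.8 sites per 100 Mb, with a median of 17.3. Chromosome 13 was the densest autosome and chromosome 7 the sparsest, and chromosome X had 6.60 per 100 Mb.

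Taken over all chromosomes together, the first, middle and last parts of the span held similar numbers of sites. Such a pooled count does not show even spacing along any chromosome. The first, middle and last 33.3% of the span held 130 sites (30.9%, 26.5 to 35.5%), 152 sites (36.1%, 31.5 to 40.9%) and 139 sites (33.0%, 28.5 to 37.7%). Each interval contained 33.3%. The span was counted from the chromosome start, and stretches where no peak could be called were not left out. So 33.3% need not be the share of an even spread, and evenness was not tested.

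Chromosome 7 stood lowest among the autosomes in the part of its E14 ZFP57 peaks called in no other list. Only 13 of its 34 peaks were E14-alone (38.2%, 22.2 to 56.4%), where the whole list has 69.9%; the chromosome was picked for its place in the order, so this is a description. Of the other 21, 10 met E14 KAP1 only, 4 met KAP1 of both lines, 6 were in all 4 lists and 1 met A3 KAP1 only. Chromosome 1 stood highest, with 38 of 43 (88.4%, 74.9 to 96.1%), although it is also the chromosome with most A3 ZFP57 peaks, 13.7% of that list. Chromosome 2 followed with 36 of 44 (81.8%, 67.3 to 91.8%). Chromosome X had 11 of 23 (47.8%, 26.8 to 69.4%). The order of the chromosomes was not tested, and with 16 to 44 peaks each on the autosomes most neighbours in it have overlapping intervals.

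**Figure D2:**
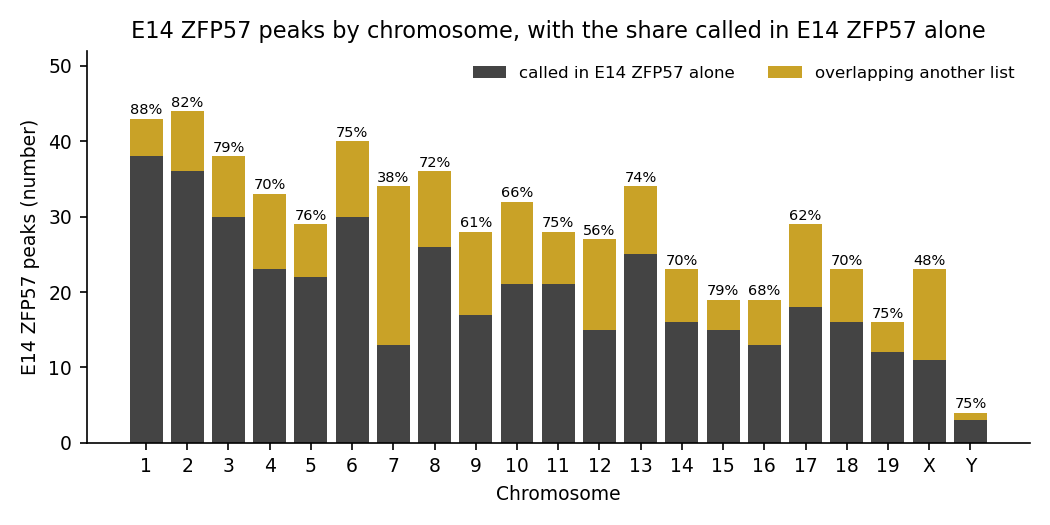
Number of E14 ZFP57 peaks on each chromosome (vertical axis), split into those called in E14 ZFP57 alone and those overlapping another list, with the former as a rounded percent above each bar. Chromosome 7 has 13 of 34 and chromosome 1 has 38 of 43.

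Most E14-alone sites had no E14 KAP1 peak within 100 kb. That list has only 1334 peaks, and its length moves the distances to it. The distance from a site to the nearest E14 KAP1 peak was 0 kb at the lowest, 668 kb at the median and 10052.5 kb at the highest. It was at most 10 kb at 14 sites (3.33%, 1.83 to 5.52%) and at most 100 kb at 70 sites (16.6%, 13.2 to 20.5%). Of all E14 ZFP57 peaks 29.4% lay within 10 kb of or on an E14 KAP1 peak, but that count holds the overlapping peaks the rule removed, so the shares cannot be set against each other.

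The A3 KAP1 list is longer, with 10295 peaks against 1334, and its peaks were nearer. The median distance was 97.65 kb, with the lowest at 0.3 kb and the highest at 2308.05 kb. It was at most 10 kb at 39 sites (9.26%, 6.67 to 12.4%; 23.9% of all E14 ZFP57 peaks, overlapping ones included) and at most 100 kb at 215 sites (51.1%, 46.2 to 55.9%). A3 KAP1 was the nearer KAP1 list at 357 sites, E14 KAP1 at 48, and at 16 both lay at the same distance. With only the wider peaks kept (at least 450 bp, at least 600 bp for A3 KAP1), 195 sites remained. Of these 6.15% lay within 10 kb of E14 KAP1 and 5.13% within 10 kb of A3 KAP1, which turns the order. The limit was higher for A3 KAP1, so the lists were not cut alike. These close shares have no intervals here, so the turn is a description. The length of the list moves these numbers too, so the order of the lists is no measure of KAP1 binding.

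Over all chromosomes together, ZFP57 peaks of the other line lay at distances like those of E14 KAP1. The distance to the nearest A3 ZFP57 peak was 1.2 kb at the lowest, 675 kb at the median and 18972.3 kb at the highest. None of the 421 lay within 1 kb, which allows a share of up to 0.713% (3 counts of the total); the exact 95% interval ends at 0.872%. It was at most 10 kb at 7 sites (1.66%, 0.671 to 3.40%; 10.8% of all E14 ZFP57 peaks, overlapping ones included) and at most 100 kb at 67 sites (15.9%, 12.6 to 19.8%). By autosome the median distance to A3 ZFP57 ran from 253 kb on chromosome 8 to 1856.03 kb on chromosome 5, and on chromosome X it was 74.4 kb. On chromosomes 1, 2 and 14, which with chromosome 8 hold the most A3 ZFP57 peaks, it was 301 kb, 349.5 kb and 496 kb. Without chromosomes 1, 2, 8 and 14 the likeness was weaker, with medians of 905 kb to A3 ZFP57 and 660 kb to E14 KAP1. The shares within 100 kb were then 11.8% (8.41 to 16.0%) and 15.4% (11.5 to 19.96%), with overlapping intervals.

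Distances to the same KAP1 list can be set beside those of the 1393 ZFP57 sites called in A3 alone, which likewise overlap neither KAP1 list. To E14 KAP1 the medians were 668 kb for E14-alone and 688 kb for A3-alone sites, and 16.6% against 14.1% (12.3 to 16.0%) lay within 100 kb. That order turned without chromosomes 1, 2, 8 and 14, on which the A3 ZFP57 list is dense, with medians of 660 kb and 631 kb and shares of 15.4% (11.5 to 19.96%) and 16.6% (13.97 to 19.4%). To A3 KAP1 the E14-alone sites were the closer ones, with a median of 97.65 kb against 147.45 kb and 51.1% (46.2 to 55.9%) against 37.5% (35.0 to 40.1%) within 100 kb. Without those chromosomes the A3 KAP1 shares were 51.8% (46.0 to 57.5%) and 37.6% (34.1 to 41.2%). E14 ZFP57 peaks that met E14 KAP1 and no A3 list were at a median of 75.75 kb from A3 KAP1, with 42 of 67 within 100 kb (62.7%, 50.0 to 74.2%), an interval that overlaps that of the E14-alone sites. Intervals cover counting error only, and sites are not replicates of a line.

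**Figure D3:**
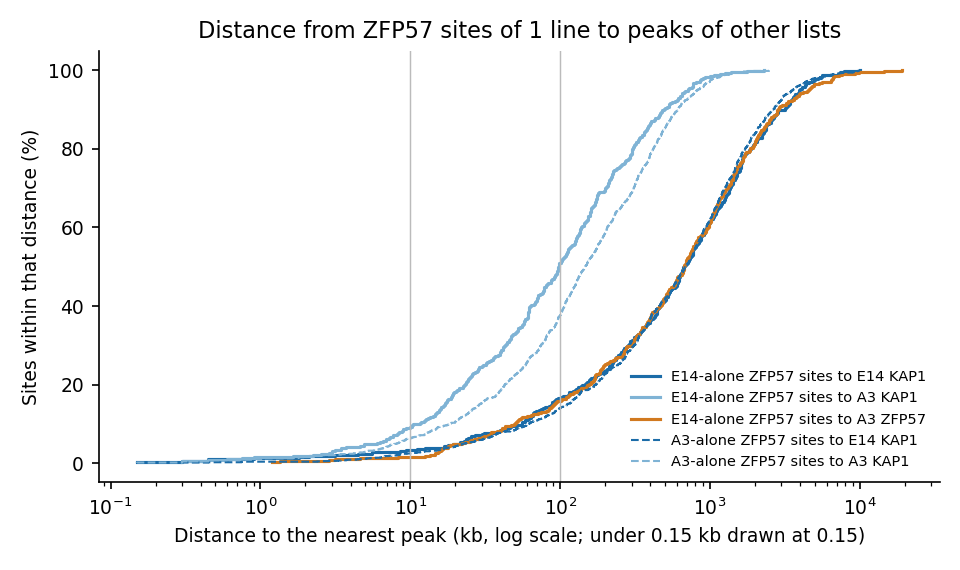
Percent of sites (vertical axis) within a given distance of the nearest peak (horizontal axis, kb, log scale) for the E14-alone ZFP57 sites to E14 KAP1, A3 KAP1 and A3 ZFP57 (solid lines) and for the A3-alone ZFP57 sites to both KAP1 lists (dashed lines); grey lines mark 10 and 100 kb. The solid and dashed curves for E14 KAP1 run together, while for A3 KAP1 the solid curve reaches 51.1% at 100 kb and the dashed one 37.5%.

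Wider E14-alone sites more often had a KAP1 peak within 100 kb than those of the minimum width. Among the 239 sites of 300 bp, 22 had an E14 KAP1 peak within 100 kb (9.21%, 5.86 to 13.6%), against 48 of the 182 sites of 450 bp and more (26.4%, 20.1 to 33.4%). For A3 KAP1 the shares were 45.2% (38.8 to 51.7%) and 58.8% (51.3 to 66.0%), with intervals that overlap slightly, and the median distances were 118.5 kb and 71.3 kb. For A3 ZFP57 the intervals overlapped, with 14.6% (10.4 to 19.8%) and 17.6% (12.3 to 23.9%). All widths are far below 100 kb. Leaving out the sites of 1050 bp and more gave 24.1% (17.9 to 31.3%) for E14 KAP1, and on the autosomes alone the shares were 9.01% and 24.1%.

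The same order was present among the ZFP57 sites called in A3 alone. Of those of 300 bp, 10.6% (8.57 to 13.0%) lay within 100 kb of E14 KAP1, against 18.6% (15.5 to 21.9%) of the wider ones. For A3 KAP1 the shares were 32.5% (29.3 to 35.9%) and 44.1% (40.1 to 48.2%). Whether the gap between narrow and wide sites differs between the lines was not tested.

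**Figure D4:**
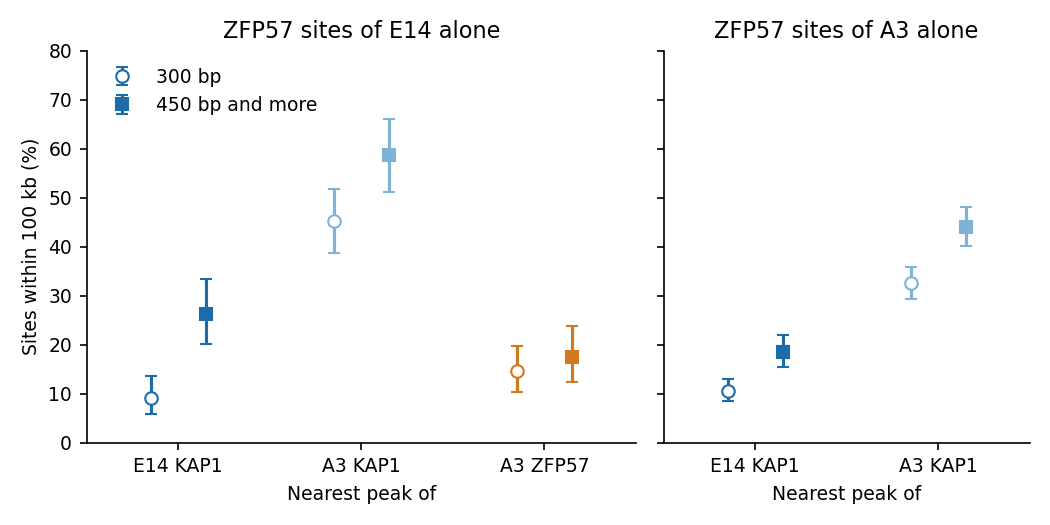
Percent of sites within 100 kb of the nearest peak of each list (vertical axis), for sites of 300 bp (open circles) and of 450 bp and more (filled squares), in E14-alone (left) and A3-alone ZFP57 sites (right); bars are 95% exact intervals. For E14 KAP1 the E14-alone values are 9.21% and 26.4%; the E14-alone bars overlap slightly for A3 KAP1 and widely for A3 ZFP57.

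Most E14-alone sites had no other E14-alone site within 1 Mb. The distance from a site to the nearest other E14-alone site was 0.6 kb at the lowest, 1755.9 kb at the median and 29643.8 kb at the highest. It was at most 100 kb at 31 sites (7.36%, 5.06 to 10.3%). Of all 602 E14 ZFP57 peaks 11.5% had another peak of their list that near. A larger set brings neighbours nearer, so these shares cannot be set against each other. The distance between E14-alone sites was at most 1 Mb at 151 sites (35.9%, 31.3 to 40.7%). Of the 374 fixed 1 Mb windows that held a site, 334 held 1, 33 held 2 and 7 held 3, the highest number. Among E14-alone KAP1 sites, a set of 630, the median spacing was 1280.4 kb, and the number of sites in a set moves this value. The nearest other E14 ZFP57 peak was itself E14-alone at 295 sites (70.1%, 65.4 to 74.4%). Of the rest of the list 69.9% are E14-alone.

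The 31 sites within 100 kb of another formed 14 pairs and 1 group of 3. The group was at chr2:98502151-98503350, chr2:98504851-98505600 and chr2:98506201-98507700, with widths of 1200, 750 and 1500 bp. Between the first and the second lay an E14 ZFP57 peak of 750 bp at chr2:98503651-98504400, and the E14 KAP1 list had a peak with the same start and end. Neither A3 list had a peak in this stretch, and the nearest A3 KAP1 peak was 48 kb from the first site. The input libraries were not used and no regions of high background were filtered out, so background signal in this stretch was not tested. The closest pair was at chr18:85212151-85212750 and chr18:85221901-85222500, 9.15 kb apart, and the next at chr6:29730001-29730300 and chr6:29744101-29744400, 13.8 kb apart. In 7 of the 14 pairs both sites had the same width. With 239 of the 421 sites at 300 bp, equal widths are common in any pair. No share over all pairs was computed, so the 7 is not a trait of near sites.

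Sites of 1050 bp and more had a neighbour within 1 Mb at a higher share than narrower ones, although most sites with a neighbour were narrow. Of the 12 sites of 1050 bp and more, 11 had another E14-alone site within 1 Mb (91.7%, 61.5 to 99.8%), against 140 of the 409 narrower ones (34.2%, 29.6 to 39.1%). For 10 of the 12 the neighbour within 1 Mb included another of the 12 (83.3%, 51.6 to 97.9%). Their median distance to E14 KAP1 was 31.5 kb, and 7 of the 12 lay within 100 kb of it. The limit of 1050 bp was chosen after earlier results on these lists were known, and 12 sites that share neighbourhoods are not 12 separate observations.

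**Figure D5:**
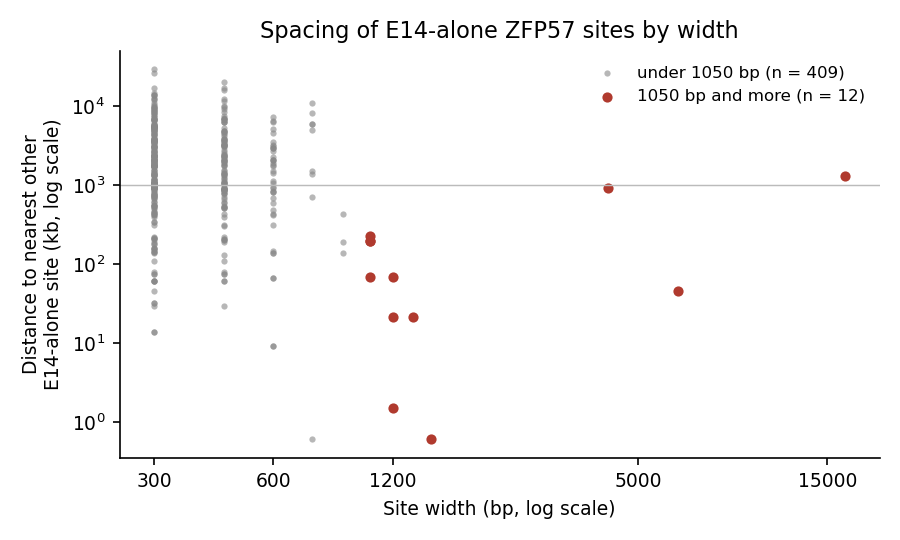
Distance to the nearest other E14-alone ZFP57 site (vertical axis, kb, log scale) against site width (horizontal axis, bp, log scale); each point is 1 of the 421 sites, red for those of 1050 bp and more, and the grey line marks 1 Mb. Of the 12 red points 11 lie under the line, and the narrow sites spread from 0.6 kb to 29643.8 kb.

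Of the E14-alone sites 8 were wider than 1050 bp and 4 had exactly that width, so the last places among the 10 widest were filled in genome order. The widest was chr1:85266301-85282950, of 16650 bp. It had no other E14 ZFP57 peak within 100 kb, but 3 E14 KAP1 peaks, 8 A3 KAP1 peaks and 1 A3 ZFP57 peak lay in that range, the nearest an A3 KAP1 peak at 6 kb. On chromosome 4 the sites chr4:145038301-145044600 (6300 bp) and chr4:146017351-146021550 (4200 bp) had E14 KAP1 peaks at 5.55 kb and 9.3 kb, while A3 ZFP57 was 102 kb and 308 kb away. So all 3 sites over 1500 bp had a KAP1 peak within 10 kb that did not overlap them.

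The pair on chromosome 17, chr17:33303301-33304500 (1200 bp) and chr17:33325951-33327300 (1350 bp), was 21.45 kb apart and had no peak of the other 3 lists within 100 kb. The nearest E14 KAP1 peak was 602 kb from the first. Likewise chr6:130858501-130859700 (1200 bp) had no peak of the other lists within 100 kb, and its neighbour of 1050 bp lay 68.1 kb away. On chromosome 3, chr3:15466351-15467400 and chr3:15664951-15666000, of 1050 bp each, were 197.55 kb apart. The second was 1.2 kb from an A3 ZFP57 peak, the shortest distance of any E14-alone site to that list. The chromosome 2 sites of 1500 and 1200 bp belong to the group of 3 above. Wide sites included ones beside KAP1 and ones with no peak of another list near.

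On the 15 chromosomes without a site among those 10 the highest width was 450 to 1050 bp. The 1050 bp site at chr12:116532001-116533050 was 39.3 kb from E14 KAP1. Sites of 750 bp led chromosomes 5, 14 and 19, at chr5:26417851-26418600, chr14:22576051-22576800 and chr19:7073701-7074450, and the first was 8.25 kb from A3 KAP1. On chromosome 7 the highest width was 600 bp, at 2 sites, chr7:15569251-15569850 and chr7:24592951-24593550, which lay 1.5 kb and 336.9 kb from A3 KAP1. On chromosome 9 no site was over 450 bp, and 7 had that width.

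At the other extreme, 161 sites (38.2%, 33.6 to 43.1%) had no peak of the other lists within 100 kb, and 2 had none within 1 Mb. Those 2 were chr5:99184501-99184800, 1166.25 kb from the nearest, and chrX:141775201-141775650, at 1004.55 kb. The next were chr7:33146251-33146550 at 870 kb, chr6:73999951-74000250 at 812.1 kb and chrY:12451-12750 at 807.6 kb. These 5 sites were 300 or 450 bp wide. Over all sites the median distance to the nearest peak of any other list was 64.05 kb.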

How the data were processed

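The 4 lists of peaks used, 1 per library, were deposited by the authors as chromosome, start and end, with no score, height, count or p-value. Build mm9 and the tools Bowtie 0.12.7, CASAVA 1.8.2, bedtools 2.14.3-1 and SAMtools 0.1.18 stand in the submitters' processing notes. No source used here gives the peak caller, its threshold or the use of the input. Every start was 1 above a multiple of 150 and every end a multiple of 150, so widths and distances move in steps of 150 bp. Library depth is unknown.

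Starts were lowered by 1, and overlapping or touching peaks of 1 list were joined. This took away 1 peak from E14 ZFP57, 3 from E14 KAP1, 1 from A3 ZFP57 and 53 from A3 KAP1. A distance is the number of bp between 2 peaks, 0 where they touch. Intervals beside shares are 95% exact (Clopper-Pearson) and hold counting error alone. No significance test was made. The rule named the 10 widest sites, the 10 nearest to and the 10 least overlapping another list, the 5 farthest, groups of 3 or more within 100 kb and the widest of each chromosome, with ties broken by genome order. The sites, lists and limits were chosen with earlier results of these data known. The tools were scipy 1.17.1, pandas 2.3.3, numpy 2.4.6 and matplotlib 3.10.9 under Python 3.11.15, and distances were checked against bedtools 2.31.1 and on simulated data. A planned description of genes and of the ZFP57 motif was not run, because no mm9 genome was used here.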

Additional observations from a re-analysis of the deposited data

How the results depend on the processing

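Of the 54 values recomputed under other settings, 48 stayed within the interval of the reported value or, for the number of sites, within 1.5 times. With only the wider peaks kept (at least 450 bp, at least 600 bp for A3 KAP1) there were 195 sites, since this leaves out every peak of 300 bp. There were 412 to 488 in the settings that kept the E14 ZFP57 list whole. Without the E14 KAP1 list 488 sites remained, of which 51.0% had the minimum width and 16.6% lay within 10 kb of E14 KAP1, since overlapping peaks then count. Among those 195 sites 6.15% lay within 10 kb of E14 KAP1 and 5.13% within 10 kb of A3 KAP1. Without the A3 KAP1 list 12.6% lay within 10 kb of it, again with overlapping peaks included. The settings without chromosomes 1, 2, 8 and 14 and the autosomes alone for the width split were chosen after seeing the data. With 1 library per group none could be left out, and the unknown depth limits what a missing call shows.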

Other observations

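On chromosome X part of the E14-alone sites lay together, in a stretch where the other lists had peaks too. Of its 11 sites, 5 lay between chrX:120336601 and chrX:121264500, a stretch of 0.928 Mb, the highest number within 1 Mb on any chromosome. The 3 sites of 600 bp there, at chrX:120336601-120337200, chrX:120651451-120652050 and chrX:120790201-120790800, had an E14 KAP1 peak at 0.45, 4.5 and 8.55 kb. The other 2, at chrX:121234201-121234500 and chrX:121264051-121264500, were 29.55 kb apart. They had an A3 ZFP57 peak at 18 and 18.3 kb and no E14 KAP1 peak within 100 kb. Within 100 kb of chrX:120336601-120337200 lay 6 E14 KAP1, 3 A3 ZFP57 and 2 A3 KAP1 peaks. Each of the 3 sites of 600 bp had an E14 ZFP57 peak that met another list nearer than any E14-alone site, at 186, 127.65 and 82.05 kb. The grouping is therefore not particular to E14-alone sites. The median distance of the chromosome X sites to E14 KAP1 was 74.55 kb, against 693 kb on the autosomes. Another 4 sites lay within 0.505 Mb on chromosome 6, at chr6:130553551 to 131058150.

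The E14 KAP1 peak nearest to an E14-alone ZFP57 site was a peak called in both lines at 188 of 421 sites (44.7%, 39.8 to 49.5%). Of the whole E14 KAP1 list 46.0% were called in both lines. Among the 70 sites within 100 kb of E14 KAP1 the share was 42.9% (31.1 to 55.3%). The nearest peak of any other list was an A3 KAP1 peak at 300 sites (71.3%, 66.7 to 75.5%). It was an A3 ZFP57 peak at 75 (17.8%, 14.3 to 21.8%) and an E14 KAP1 peak at 46 (10.9%, 8.11 to 14.3%). A site equally near to E14 KAP1 and another list was counted for E14 KAP1. The 46 therefore include ties, as at chrX:120336601-120337200, and E14 KAP1 alone was nearest at fewer sites. The A3 KAP1, A3 ZFP57 and E14 KAP1 lists hold 78.5%, 11.3% and 10.2% of the peaks set against the sites. These regions were chosen for mention after their values were seen.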
